A study of Mus musculus with 6 samples.

Results

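The adrenergic receptor genes encode the cell surface receptors for noradrenaline and adrenaline, and 7 of them were followed in the PFC of mice raised with or without early life stress (ELS). They were taken by gene symbol as Adra1a, Adra1b, Adra1d, Adra2a, Adra2b, Adra2c and Adrb1, which are 7 of the 22000 symbols in the count table, and all 7 were found there. RNA-seq was performed on PFC from 3 controls and 3 ELS mice, all wild-type male C57BL/6N mice at 9 weeks of age, with 1 library per mouse. ELS mice were housed singly in cages with a filter cap after weaning, and controls shared a cage that had none. According to the study's methods, behavior was tested first and the housing of each group was maintained up to dissection. The paper states that control and ELS mice shared a mother, and the labels name no transgene or drug for either group.

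Noradrenaline reaches the PFC through axons of the locus coeruleus, so the enzymes that make it are expressed mainly outside the tissue, whereas its receptors are made by PFC cells themselves. The receptors fall into 3 classes. The alpha-1 receptors (Adra1a, Adra1b and Adra1d) couple to Gq and raise intracellular calcium through phospholipase C. The alpha-2 receptors (Adra2a, Adra2b and Adra2c) couple to Gi and lower cyclic AMP, and Adra2a and Adra2c also serve as autoreceptors on noradrenaline neurons. The beta receptors, of which Adrb1 is a main form in cortex, couple to Gs and raise cyclic AMP. In the PFC, signaling through alpha-2A receptors is known for its role in working memory, and strong alpha-1 and beta-1 signaling is known from studies of acute stress.

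Between 28405795 and 35241743 reads were counted per mouse, with all 3 ELS libraries deeper than the 3 control libraries. Levels are therefore given as CPM (counts-per-million), the counts of a gene relative to the summed counts of the tested genes in its library, scaled by the TMM method of edgeR. The filter on CPM that chose the tested genes used the summed counts of all genes. The neuronal and glial markers of cortex were present in every mouse, with a summed level of 5251 to 6193 CPM for glutamatergic neurons and 1276 to 1475 CPM for astrocytes. Markers of striatal projection neurons, which would not be abundant in pure PFC, were summed to 322, 348 and 567 CPM in controls 1 to 3 and to 539, 376 and 399 CPM in ELS mice 1 to 3. Thus, control mouse 3 and ELS mouse 1 stood apart from the other mice by higher levels of striatal markers. All 9 striatal markers found in the table were detected, and 1 further listed marker was not matched to a symbol. In bulk tissue, fewer cells of a type and less RNA per cell cannot be told apart.

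The receptor genes differed first of all in their levels. Of the 7, 6 passed the filter of 1 CPM or more in each mouse of a group and were tested, and Adra2b did not. Adra2b had 3, 2 and 1 reads in controls 1 to 3, and 4, 2 and 4 reads in ELS mice 1 to 3. Thus, 16 reads came from Adra2b in all 6 mice, against 2626 from Adra2a. All 6 values for Adra2b lay at or near 3 reads, the limit that a count of 0 allows, and no fold change is given. The gene is at 127363208 to 127367221 of chromosome 2 (plus strand, GRCm38), has 1 exon in its longest annotated transcript, and overlaps no exon of another gene. RefSeq start regions of 300 bases, 250 before and 50 after a start on GRCm38.p6, were matched for 5 of the 7 receptor genes, with 2 for Adra1b. By the GENCODE M21 gene bounds, the Adra2a region and 1 of the Adra1b regions lay wholly inside the gene, as did 297 bases of the Adra2c region, so these do not lie before the annotated gene. The other 3 regions lay before it or reached into it by 21 (Adra2b) or 23 bases (Adra1b), and are shown to set the base composition next to Adra2b, the gene with 16 reads, beside that of Adra1b and Adrb1, with 6529 and 6212 reads over the 6 mice. They are read from chr11:43901188-43901487 (minus strand) for Adra1b, chr2:127362929-127363228 (plus strand) for Adra2b and chr19:56721867-56722166 (plus strand) for Adrb1, with CG dinucleotides in capitals.
Adra1b: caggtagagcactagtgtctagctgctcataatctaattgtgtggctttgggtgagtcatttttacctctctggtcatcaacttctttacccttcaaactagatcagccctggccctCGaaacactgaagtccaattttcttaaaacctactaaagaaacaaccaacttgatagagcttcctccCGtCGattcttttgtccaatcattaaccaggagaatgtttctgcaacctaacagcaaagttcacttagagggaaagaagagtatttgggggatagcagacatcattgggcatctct
Adra2b: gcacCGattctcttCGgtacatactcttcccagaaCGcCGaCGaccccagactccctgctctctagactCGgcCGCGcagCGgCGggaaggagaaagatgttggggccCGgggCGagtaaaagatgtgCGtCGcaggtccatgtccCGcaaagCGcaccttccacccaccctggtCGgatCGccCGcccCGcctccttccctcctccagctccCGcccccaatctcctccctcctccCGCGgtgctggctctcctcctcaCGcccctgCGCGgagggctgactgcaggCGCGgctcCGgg
Adrb1: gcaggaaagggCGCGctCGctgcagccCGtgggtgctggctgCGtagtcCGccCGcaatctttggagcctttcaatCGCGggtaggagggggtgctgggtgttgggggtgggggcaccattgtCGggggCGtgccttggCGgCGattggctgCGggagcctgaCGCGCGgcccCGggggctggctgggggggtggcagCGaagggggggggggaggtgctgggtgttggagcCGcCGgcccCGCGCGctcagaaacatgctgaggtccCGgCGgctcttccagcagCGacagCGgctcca

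The Adra2b region held 29 CG dinucleotides at a GC content of 68%, the Adrb1 region 28 at 72.3% and this Adra1b region 3 at 42.3%. Over all 32851 start regions of the same length, the median was 7 CG dinucleotides and a GC content of 52.7%, and 14.2% held at least 28. The CG dinucleotide reads the same on both strands, was the only motif searched and was found in 94.6% of all these regions. Of the regions inside the genes, those of Adra1b and Adra2a each held 28 and that of Adra2c held 7.

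To compare levels between genes, CPM were divided by the length of all annotated exons of the gene in kilobases. On this scale Adra1d was highest, at 15.1 ± 0.583 CPM per kilobase in controls and 16.3 ± 0.346 in ELS mice (SD, n = 3 each). Adra1b followed at 10.2 ± 0.871 and 10.3 ± 0.632, and Adrb1 at 10.1 ± 1.22 and 9.42 ± 0.855 CPM per kilobase. Adra1b exceeded Adrb1 in 5 of 6 mice and their ranges overlapped, so these neighbors did not differ beyond the spread between mice. Next came Adra2c with 6.86 ± 0.579 and 6.52 ± 0.427 CPM per kilobase, and then Adra2a with 2.76 ± 0.220 and 2.99 ± 0.289. Adra1a was the lowest of those tested, with 1.47 ± 0.218 and 1.35 ± 0.156 CPM per kilobase, while Adra2b was at 0.0169 ± 0.00782 and 0.0250 ± 0.00933. Apart from Adra1b and Adrb1, each pair of neighbors in this order had ranges that did not overlap over the 6 mice. The mean level of Adra1d was 1.53 times that of Adra1b. The order at the top rested on the length used. With coding length alone, Adrb1 was first at 23.6 CPM per kilobase over all mice and led in 4 of 6, followed by Adra1b at 22.4 and Adra1d at 17.7. Adra1d is annotated with 1899 bases of exon of which 1686 are coding, whereas Adra1a has 8728 bases over 6 transcripts of which 1412 are coding. The order of the lower means was kept under coding length, with Adra2c at 16.8, Adra2a at 9.96, Adra1a at 8.71 and Adra2b at 0.0619 CPM per kilobase. On that scale, however, the range of Adra2a (8.66 to 11.5) overlapped that of Adra1a (7.51 to 10.5), and the range of Adra1d (16.2 to 18.7) overlapped that of Adra2c (15.3 to 18.2).

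The share of each receptor in the summed level per kilobase of all 7 was taken next, because a ratio within a library does not depend on the scaling between libraries. Adra1d made up 32.1%, 32.5% and 32.8% of the sum in controls 1 to 3, and 34.9%, 34.0% and 35.2% in ELS mice 1 to 3. Its share was higher in every ELS mouse than in every control mouse, by 2.23 percentage points (exact permutation test, two-sided, p = 0.1, the smallest p that 3 against 3 mice allow). The share of Adra2a was also higher in every ELS mouse, at 6.21%, 6.80% and 6.14% against 6.01%, 6.06% and 5.69% in controls (difference 0.458 points, exact permutation test, two-sided, p = 0.1). This difference was 0.250 points without ELS mouse 2. With coding length the differences were 1.48 points for Adra1d, whose share was then 17.1 ± 0.281% in controls and 18.6 ± 0.496% in ELS mice (n = 3 each), and 0.912 points for Adra2a, and the groups again did not overlap. Without any length scaling, the Adra2a difference was 0.829 points. Adrb1 held 22.7%, 22.6% and 19.8% in controls and 18.9%, 21.3% and 20.03% in ELS mice, and these groups overlapped (exact permutation test, two-sided, p = 0.3). The other 4 shares also overlapped between groups, with exact p from 0.3 to 1. These 7 shares add up to 100% and so are not independent of each other. The alpha-1 genes together exceeded the alpha-2 genes 2.78 ± 0.253 fold in controls and 2.92 ± 0.139 fold in ELS mice (SD, n = 3 each). With coding length this ratio was 1.81 ± 0.151 in controls and 1.83 ± 0.0908 in the ELS group. On the log2 scale the difference in the ratio by exon length was 0.07, with overlapping groups (exact permutation test, two-sided, p = 0.4), and ran from 0.03 without control mouse 2 to 0.15 without control mouse 1. The summed level of all 7 genes was 46.5 ± 2.21 CPM per kilobase in controls and 46.8 ± 1.86 in ELS mice (SD, n = 3 each).

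**Figure D1:**
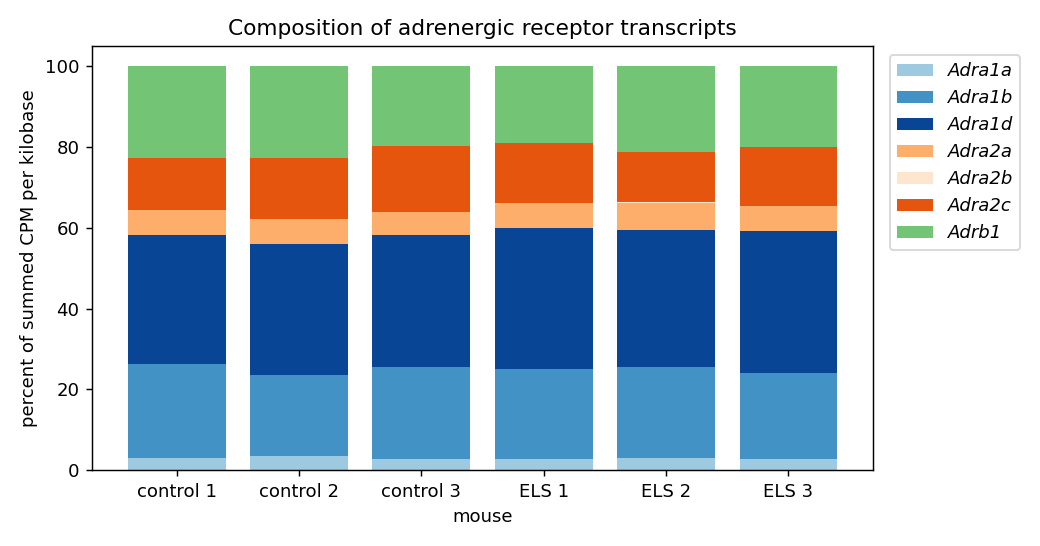
Percent of the summed CPM per kilobase (length of all exons) of the 7 adrenergic receptor genes (y axis) in each of the 6 mice (x axis), 1 stacked bar per mouse and 1 color per gene. On this length scale, Adra1d takes the widest band in every mouse, from 32.1% to 35.2%, which it does not with coding length, and Adra2b is too narrow to see.

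Next, control and ELS mice were compared gene by gene. None of the 6 tested receptor genes passed an adjusted p of 0.05 in edgeR's quasi-likelihood test, where 0.0152% of the 13185 genes tested did. None had an unadjusted p under 0.05 either, against 4.23% of all genes tested. With edgeR's filterByExpr in place of the filter on CPM, again none did, against 4.28% of all genes. DESeq2 likewise called 0 of the 6, against 0.137% of all genes, and gave none of them an unadjusted p under 0.05, against 3.72%. The log2 fold change was above 0 for 3 genes (Adra1b, Adra1d and Adra2a) and below 0 for 3 (Adra1a, Adra2c and Adrb1), with a median of -0.03, while 47.5% of all genes tested were above 0. The adjusted p was 1.0 for each of the 6 after rounding, and the 95% intervals show how large a change remained possible. A change beyond these bounds would lie outside the interval, but the intervals do not show that the levels were equal.

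**Figure D2:**
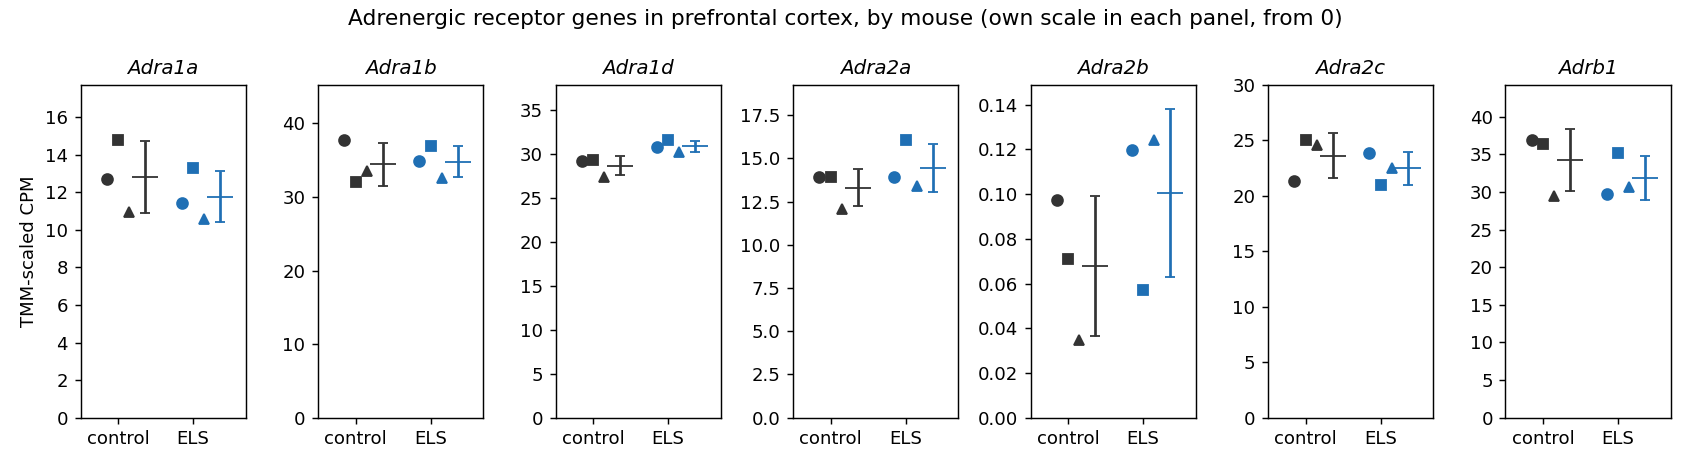
TMM-scaled CPM (y axis, from 0, own scale in each panel) of the 7 receptor genes in control (black) and ELS (blue) mice. Circles, squares and triangles are mice 1, 2 and 3 of each group, and bars show mean ± SD over 3 mice. The groups overlap in every panel but that of Adra1d.

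Among the alpha-1 receptors, Adra1d was the only one whose groups did not overlap. The gene is at 131545850 to 131562283 of chromosome 2 (minus strand, GRCm38), where the antisense gene Gm14285, which has no row in the count table, covers 7.74% of its exons. It had 29.2, 29.4 and 27.4 CPM in controls 1 to 3 and 30.8, 31.5 and 30.2 CPM in ELS mice 1 to 3. Every ELS mouse was above every control mouse, as in 3.81% of all genes tested, while in 4.47% the 3 ELS mice were all below the controls. The log2 fold change was 0.11 (standard error 0.0730, 95% interval -0.05 to 0.27), with an unadjusted p of 0.168 in edgeR's quasi-likelihood test. This corresponds to 1.08 fold. The mice of each group lay close together, with an SD of 3.86% of the mean in controls and 2.13% in ELS mice, near the counting error of 3.57% or less.

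Adra1b, at 43774606 to 43901210 of chromosome 11 (minus strand), gave the most reads of the 7 genes, 903 to 1290 per mouse. It had 37.7, 31.98 and 33.6 CPM in controls and 34.9, 36.9 and 32.6 CPM in ELS mice. Control mouse 1 was highest and control mouse 2 lowest, so the controls spanned all ELS mice. Its log2 fold change of 0.02 (standard error 0.0836, 95% interval -0.17 to 0.20) was the closest to 0 of the 6.

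Adra1a, at 66635251 to 66771168 of chromosome 14 (plus strand), had the largest spread relative to its mean within the control group, of the 6 tested receptor genes. It had 12.7, 14.8 and 10.97 CPM in controls and 11.5, 13.3 and 10.6 CPM in ELS mice. Mouse 2 of each group was the highest of its group and mouse 3 the lowest, and the groups overlapped. The log2 fold change of -0.12 (standard error 0.126) had the widest 95% interval of the 6, from -0.40 to 0.15, and was -0.06 with the striatal level as a covariate. The counting error at 314 to 464 reads per mouse was 5.64% at most, below the SD of 14.8% of the mean in controls.

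Of the alpha-2 receptors, Adra2a and Adra2c had fold changes of opposite sign, and neither passed the test. Adra2a, at 54044151 to 54048982 of chromosome 19 (plus strand), had 13.9, 13.9 and 12.1 CPM in controls and 13.9, 16.0 and 13.4 CPM in ELS mice. ELS mouse 2 was highest and control mouse 3 lowest, while the other 4 mice lay between 13.4 and 13.9 CPM. The log2 fold change was 0.12 (standard error 0.105, 95% interval -0.11 to 0.35, unadjusted p of 0.274 in the quasi-likelihood test). It was 0.05 without control mouse 3 and 0.04 without ELS mouse 2.

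Adra2c, at 35278319 to 35281763 of chromosome 5 (plus strand), is known for high expression in striatal projection neurons as well as in cortex. It had 21.3, 25.003 and 24.6 CPM in controls and 23.9, 21.0 and 22.5 CPM in ELS mice. The log2 fold change was -0.07 (standard error 0.0900, 95% interval -0.27 to 0.12, unadjusted p of 0.437 in the quasi-likelihood test). It was -0.14 without control mouse 1 and -0.03 without ELS mouse 2. In the ELS group, the mice had the same order by Adra2c as by striatal markers, with ELS mouse 1 highest in both. In the control group, control mouse 3 had the highest striatal marker level but control mouse 2 the highest Adra2c. With the striatal level as a covariate, the log2 fold change of Adra2c was -0.10 (standard error 0.0836).

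Adrb1, at 56722199 to 56733113 of chromosome 19 (plus strand), is the beta-1 receptor, which is activated by noradrenaline and stimulates adenylyl cyclase. It had 36.8, 36.3 and 29.4 CPM in controls and 29.8, 35.2 and 30.6 CPM in ELS mice. Its log2 fold change was -0.10 (standard error 0.0992, 95% interval -0.32 to 0.11, unadjusted p of 0.319 in the quasi-likelihood test). The 2 lowest values came from control mouse 3 and ELS mouse 1, the 2 mice with the highest striatal marker levels, and the highest came from control mouse 1, the mouse with the least. ELS mouse 3 was close to the lowest at 30.6 CPM, though its striatal markers summed to 399 CPM and its glutamatergic markers to 6117 CPM. Control mouse 3 and ELS mouse 1 also had the lowest sums of glutamatergic neuron markers, at 5553 and 5251 CPM against 5922 to 6193 CPM in the other 4. This sum was mostly Camk2a and Slc17a7, and not every listed marker followed it. Neurod6 was at 123 CPM in ELS mouse 1, below only control mouse 1 (124 CPM), and Tbr1 was lowest in ELS mouse 3 (149 CPM). The part of tissue composition in the Adrb1 values was not tested. With the striatal level as a covariate, the log2 fold change shrank to -0.04 and its standard error to 0.0729. It was -0.05 without control mouse 1 and -0.18 without ELS mouse 2. Without control mouse 3 it was -0.20, with an unadjusted p of 0.0277 and an adjusted p of 0.375 in the quasi-likelihood test, while 1544 of 13212 genes then had an unadjusted p under 0.05.

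**Figure D3:**
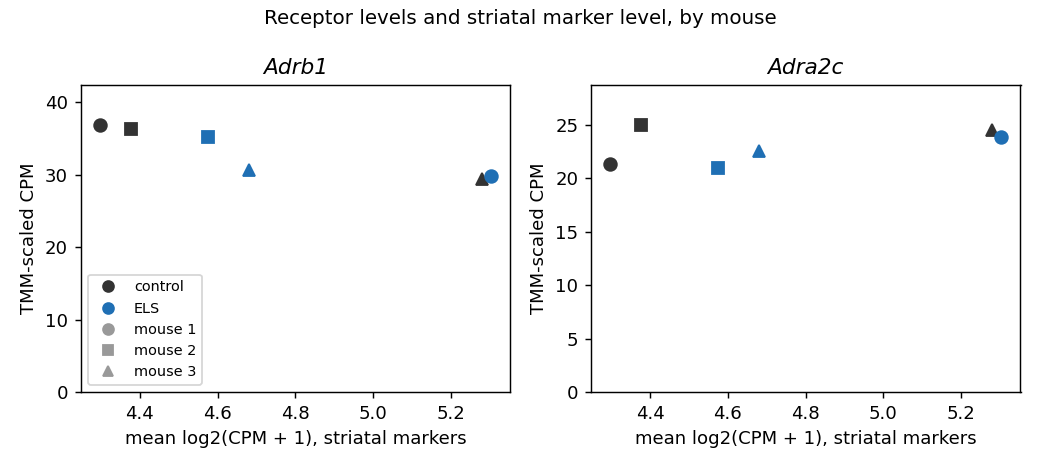
TMM-scaled CPM of Adrb1 and Adra2c (y axes, from 0) against the mean log2(CPM + 1) of the 9 striatal markers (x axis) in control (black) and ELS (blue) mice, with circles, squares and triangles for mice 1, 2 and 3. Control mouse 3 and ELS mouse 1 lie to the right, with 29.4 and 29.8 CPM of Adrb1, the 2 lowest. ELS mouse 3 lies further left with 30.6 CPM.

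**Figure D4:**
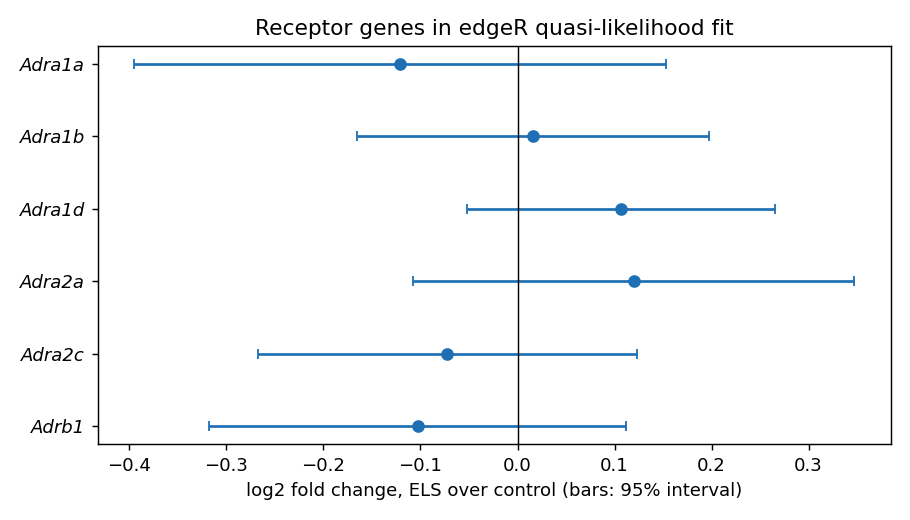
Log2 fold change of ELS over controls (x axis) with 95% intervals from the edgeR quasi-likelihood fit for the 6 tested receptor genes. All intervals lie between -0.40 and 0.35 and include 0.

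Outside this list of 7, Adrb3, the beta-3 receptor gene known from fat tissue, was close to the detection filter. It had 36, 30 and 20 reads in controls and 57, 45 and 55 reads in ELS mice, which is 1.17, 1.06 and 0.699 CPM against 1.71, 1.29 and 1.71 CPM. It passed the filter only through the ELS group, where its level was higher, so its test under that filter is not given. With filterByExpr, which does not use which group is higher, the log2 fold change was 0.68 (standard error 0.297, unadjusted p of 0.0405, adjusted p of 1.0 in the quasi-likelihood test), so it did not pass the correction. An antisense gene covers 24.9% of the Adrb3 exons, and although the labels and the paper each name a stranded library kit (of different makers), whether reads were counted by strand is not given in the sources used here. The same holds for the antisense gene at Adra1d.

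The receptor genes did not all vary together across the 6 mice. Adra1a and Adrb1 were high and low in nearly the same mice (Pearson r = 0.87), as did Adra1d and Adra2a (r = 0.86), whereas Adra1b and Adra2c had opposite patterns (r = -0.79). Of the 15 pairs of tested receptor genes, these were the 3 with the largest absolute r. They are given as a description over 6 mice, and the genes of a pair were measured in the same libraries. Over the same 6 mice and all 13185 genes tested, the 2 genes most alike in log2(CPM + 1) were E2f3 (r = 0.994, Spearman's rho = 1) and Setd5 (0.988, 0.943) for Adra1a, and Znrd1as (0.991, 1) and Kif2a (0.986, 1) for Adra1b. For Adra1d they were Gnb4 (0.987, 0.943) and Tpbgl (0.981, 0.943), and for Adra2a Pml (0.986, 0.943) and Srr (0.982, 0.943). For Adra2c they were Pam16 (0.994, 1) and Paqr5 (0.985, 1), and for Adrb1 Ccnt1 (0.997, 1) and Polg (0.993, 1). These are the highest values found among all genes over 6 points and are given as a description.

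Finally, genes that act before and after these receptors were examined, 80 in all, of which 79 were found and 71 tested. None passed an adjusted p of 0.05 in edgeR's quasi-likelihood test, and 5 of the 71 (7.04%) had an unadjusted p under 0.05, against 4.23% of all genes tested. Among the 5 is Adrb3, which passed the filter only through the ELS group, and with filterByExpr it was also 5, of 73 (6.85%), against 4.28%. The median log2 fold change of the 71 was -0.0026, against -0.0046 over all genes tested.

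Noradrenaline synthesis and clearance was represented by 11 genes, of which 7 were tested. Th, which encodes the first enzyme of catecholamine synthesis, had 57, 50 and 49 reads in controls and 76, 52 and 36 reads in ELS mice. Dbh, which encodes the enzyme that turns dopamine into noradrenaline, was below the filter with 6 reads in each control mouse and 3, 5 and 3 reads in ELS mice 1 to 3. Slc6a2, the noradrenaline transporter gene, had 0 reads in all 6 mice. Thus Dbh and Slc6a2 were at or near the detection limit, whereas Th passed the filter. Among genes for the removal of the transmitter, Maoa, which encodes a monoamine oxidase, had 54.6 ± 3.55 CPM in controls and 52.4 ± 4.33 CPM in the ELS group (SD, n = 3 each). Slc22a3, which encodes a low-affinity monoamine transporter, had 2.05, 1.98 and 2.10 CPM in controls and 2.55, 3.09 and 3.38 CPM in ELS mice. All 3 ELS mice were above the controls, as in 3.81% of all genes tested. The log2 fold change of Slc22a3 was 0.56 (standard error 0.192, unadjusted p of 0.0129, adjusted p of 1.0 in the quasi-likelihood test). Ddc, the decarboxylase gene, had a log2 fold change of -0.21 (standard error 0.165).

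In the Gq arm, downstream of alpha-1 receptors, 0 of 13 tested genes had an unadjusted p under 0.05, and the median log2 fold change was 0.04. Its most abundant genes, the IP3 receptor gene Itpr1 and the protein kinase C gene Prkcb, had log2 fold changes of -0.05 and -0.04. The smallest p belonged to Itpr3, with 3.50 ± 0.639 CPM in controls and 4.63 ± 0.745 CPM in ELS mice (n = 3 each, SD), followed by Prkca with a log2 fold change of 0.15. In the Gi arm, downstream of alpha-2 receptors, 0 of 10 had an unadjusted p under 0.05, with a median log2 fold change of 0.0019. Here Gnao1 and Gnai1, which encode G protein alpha subunits, had log2 fold changes of -0.02 and 0.08, and the potassium channel gene Kcnj9 had -0.09.

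In the Gs arm, downstream of beta receptors, 3 of 21 tested genes had an unadjusted p under 0.05, against 4.23% of all genes tested, namely the adenylyl cyclase genes Adcy4, Adcy8 and Adcy9, which encode enzymes that make cyclic AMP. The other 6 adenylyl cyclase genes of the list had an unadjusted p of 0.124 or more, with Adcy2 (0.01) and Adcy5 (0.06) above 0 on the log2 scale and Adcy1, Adcy3, Adcy6 and Adcy7 below. Adcy8 had 22.4, 23.4 and 18.8 CPM in controls and 18.7, 17.99 and 17.1 CPM in ELS mice. Every ELS mouse lay below every control mouse, as in 4.47% of all genes tested, though control mouse 3 and ELS mouse 1 were close. The log2 fold change of Adcy8 was -0.26 (standard error 0.0962, unadjusted p of 0.0171 in the quasi-likelihood test). Adcy9 had a log2 fold change of -0.24 (standard error 0.0956), with 57.6, 53.0 and 53.1 CPM in controls and 40.4, 53.7 and 44.8 CPM in ELS mice, so that ELS mouse 2 lay among the controls. Adcy4, named after its value was seen, had 2.496 ± 0.456 CPM in controls and 3.50 ± 0.685 CPM in ELS mice (SD, n = 3 in each group), with a log2 fold change of 0.48. All 4 listed endothelial markers were detected, with a summed level of 119 to 140 CPM in controls and 128 to 156 CPM in the ELS group, and the 4 mural cell markers summed to 224 to 232 and 221 to 254 CPM. Of these 8 vascular markers, 3 had an unadjusted p under 0.05 in the quasi-likelihood test, against 4.23% of all genes tested, namely Cldn5 (log2 fold change 0.31), Pdgfrb (0.28) and Kcnj8 (0.37), and none passed the correction. The part of vascular cells in the value of Adcy4 was not tested. The adjusted p was 1.0 for Adcy4, Adcy8 and Adcy9 in the quasi-likelihood test. The most abundant genes of this arm, Gnas and Adcy1, had log2 fold changes of -0.02 and -0.16.

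Receptor regulation, which covers kinases, arrestins, RGS proteins and scaffolds that act on receptors, had 0 of 16 genes with an unadjusted p under 0.05 and a median log2 fold change of -0.03. Akap5, a scaffold gene, had a log2 fold change of 0.16 (standard error 0.0813, unadjusted p of 0.0740 in the quasi-likelihood test), and Rgs14 also had 0.16. For Akap5 each ELS mouse was above each control mouse, as in 3.81% of all genes tested and in some other related genes, not all named here. Ppp1r9b and Rgs4, the most abundant of this list, had -0.03 and -0.02. Of the dopamine receptor genes, 2 were tested. Drd5 had a log2 fold change of 0.33 (standard error 0.171, unadjusted p of 0.0785 in the quasi-likelihood test) and Drd2 of 0.19 (standard error 0.405), the latter with 104, 125 and 300 reads in controls and 387, 150 and 160 reads in ELS mice. Drd2 is itself among the 9 striatal markers, and its 2 highest mice were the same as for their sum.

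**Figure D5:**
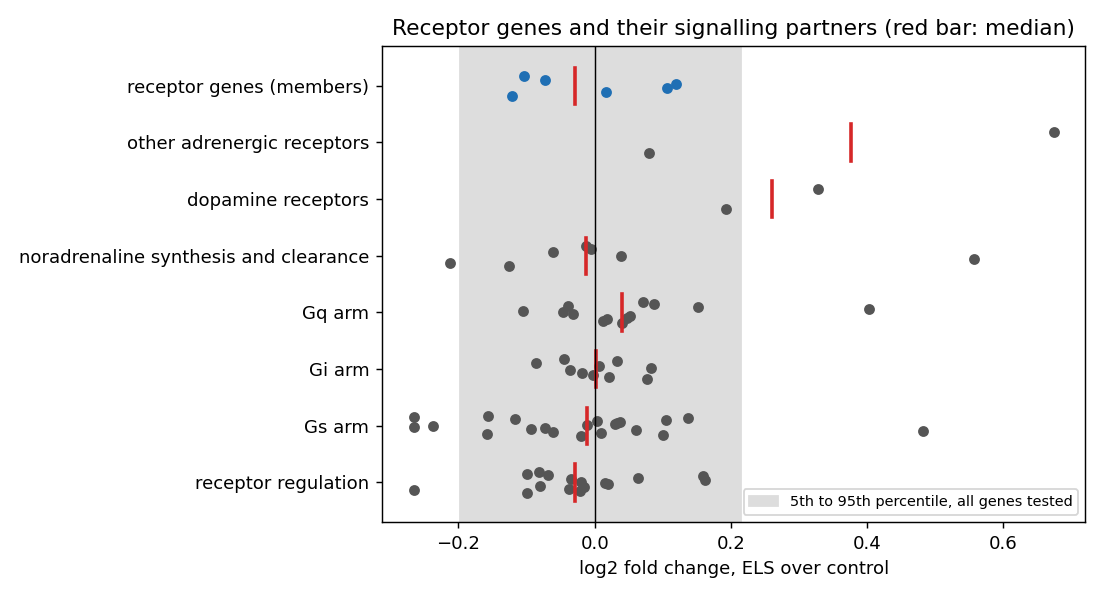
Log2 fold change of ELS over controls (x axis) for the tested receptor genes and for each list of related genes (rows), 1 dot per gene, with a red bar at the median of the row. The gray band covers the 5th to 95th percentile of all genes tested, -0.20 to 0.21, and all 6 dots of the top row, the receptor genes, lie within it.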

How the data were processed

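The authors sequenced 1 PFC library for each of 6 mice, from 500 ng of total RNA with an RNA integrity number of at least 8.8 and with 151 base paired-end reads. After trimming (Trimmomatic) and alignment to mm10 (STAR), uniquely mapped reads were counted with HTSeq, and the authors deposited these raw counts by gene symbol. The submitters' processing notes give STAR 2.7.1a and HTSeq 0.9.1, and the paper names another STAR version. The labels name a TruSeq and the paper a KAPA library kit, both stranded. The annotation release and the strand setting of the counting are not given in the sources used here. Columns headed SI, for social isolation, were assigned to the equally numbered ELS mice.

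A gene was tested if it reached 1 CPM in every mouse of the control or the ELS group (13185 genes). The fit used edgeR 4.0.16 under R 4.3.3 (TMM factors over these genes, from 0.992 to 1.02, quasi-likelihood test with condition as its only term), with Benjamini-Hochberg adjustment over all of them. Standard errors and 95% intervals came from the F statistic. A call is an adjusted p under 0.05, with no threshold on the fold change. DESeq2 1.42.0 was an alternative, beside other scalings, filters, a replicate block, a striatal covariate and leaving out each mouse. Total counts ran from 28405795 to 35241743 per mouse, which gave counting errors of 2.78% to 5.64% for the 6 tested receptor genes, near the spread between mice for Adra1d, and the 3 mice in a group also limit the precision. Exon lengths and coordinates were read from GENCODE M21 (GRCm38, which is mm10). The test was run on simulated counts with changes larger than those of the receptor genes, so its power at such small changes was not checked.

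The receptor genes and the lists of related genes were chosen with earlier results of these data known. Named beside the receptors were Th, Dbh, Slc6a2 and, of each list, genes past the threshold, the 2 with the smallest p and the 2 with the highest CPM. Some genes that this rule names are not reported here. Grk2 and Grk3 were found under older symbols (Adrbk1 and Adrbk2), and 1 dopamine receptor gene was not matched and is not used here. Protein sequences were not used here.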

Additional observations from a re-analysis of the deposited data

How the results depend on the processing

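No receptor gene was called under any of the alternatives run, and no gene of the related lists either. Over all genes, the number called was 2, and it became 4 when every gene with a read was tested, 18 with DESeq2, 7 with the replicate block, 30 with the striatal covariate, and 1 to 29 with a mouse left out, the 29 without control mouse 3. The cause was not tested. The log2 fold changes of Adra1a, Adra1d, Adra2a, Adra2c and Adrb1 kept their sign in all 13 alternatives. That of Adra1b reversed with some mice left out (-0.0335 to 0.0872), as did the difference in its share (-0.948 to 0.708 percentage points). The replicate block did not change the sign or call of any receptor gene. For numbers 1 to 3, deviations from the group means correlated at -0.164, 0.258 and -0.0355 between groups, so the numbers are not shown to pair the mice. The log2 fold change of Adra1a ran from -0.22 without control mouse 3 to -0.01 without control mouse 2. Those of Adra2c and Adrb1 with a mouse left out ran from -0.14 to -0.03 and from -0.20 to -0.05. Coding length in the shares and the alpha ratio, and filterByExpr for the count of related genes with an unadjusted p under 0.05, were chosen after seeing the data, and no direction changed.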
